A study of Danio rerio with 4 samples.

Results

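The integrated stress response is the shared programme by which animal cells slow translation and switch on rescue genes when the endoplasmic reticulum (ER), amino acid supply, haem or redox balance is disturbed. Stress-activated kinases phosphorylate the initiation factor eIF2, most translation slows, and the transcription factor ATF4 is made from its pre-existing messenger RNA. In mammals ATF4 switches on amino acid synthesis enzymes such as ASNS, PSAT1 and PHGDH, and, together with its target CHOP (the product of *DDIT3*), switches on *TRIB3* and *CHAC1*. XBP1 belongs to a neighbouring pathway, the unfolded protein response, in which the ER sensor IRE1 splices *XBP1* messenger RNA and the spliced form raises ER chaperones. Much of the control of ATF4 and XBP1 lies in translation and splicing, which a value per gene does not measure.

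The 9 zebrafish genes followed here were chosen by name as members or targets of this response, with earlier results of these data known. They are *ddit3*, *trib3*, *chac1*, *atf4b1*, *atf4b2*, *xbp1*, *asns*, *psat1* and *phgdh*. Of the 27423 rows of the deposited table, 8 carry one of these names as the gene symbol. No row has the symbol *ddit3*, but 1 row listed as zgc:162630 gives ddit3 among its aliases and is named *ddit3* in RefSeq, so it was taken as the ninth gene. RefSeq now names *atf4b1* as *atf4a* and *atf4b2* as *atf4b*. All 9 had a value of at least 100 in every library, as did 13633 rows of the table. No other row overlapped the position of any of the 9 genes.

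RNA came from pooled whole larvae at 48 hours post fertilization (hpf), with 1 library for each of 4 groups. The *goosepimples* (*gsp*) mutants are homozygous for a mutation in the gene of Myosin Vb, an actin-based motor, and the *romeharsha* (*rhs*) mutants are homozygous for a mutation at a locus whose gene the study describes as unknown. The study describes both as mutants in which cells of the outer skin layer, the periderm, round up for a time. Each mutant has its own siblings as controls, which the labels describe as heterozygous and homozygous wild-type larvae together, and no group was treated. Mutants were told from siblings as living larvae, and 20 larvae per group from 3 clutches per mutant are given in the labels, while the study's methods state another number. The values are estimated read counts that are not scaled between libraries, and the 4 totals lay between 106188690 and 118680429. With 1 library per group, no comparison of a mutant with its own sibling had replicates and no test was made. A fit over both lines, which would take the 2 different mutants as replicates, was not run. The intervals given with ratios (exact, Clopper-Pearson, 95%) cover counting error only.

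The gene of CHOP and a pair of its known targets in mammals had higher counts in both mutants. *ddit3*, *trib3* and *chac1* had ratios of mutant to own sibling from 1.74 to 2.42, whereas none of the other 6 genes was past 1.48-fold, the threshold used for a call, in either line. Thus 3 of 9 genes were past the threshold upward and 0 downward in *gsp*, and the same 3 upward and 0 downward in *rhs*. Over all 13633 transcripts, 5.07% were past it upward and 4.83% downward in *gsp*, and 6.45% upward and 12.6% downward in *rhs*, while 3.52% were past it upward in both lines and 0.976% downward in both. The 9 genes were chosen with earlier results of these data known, so these shares give a scale and not a test. The median of all log2 ratios was -0.11 for *gsp* and -0.20 for *rhs*, so ratios are also given relative to it where this matters.

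**Figure D1:**
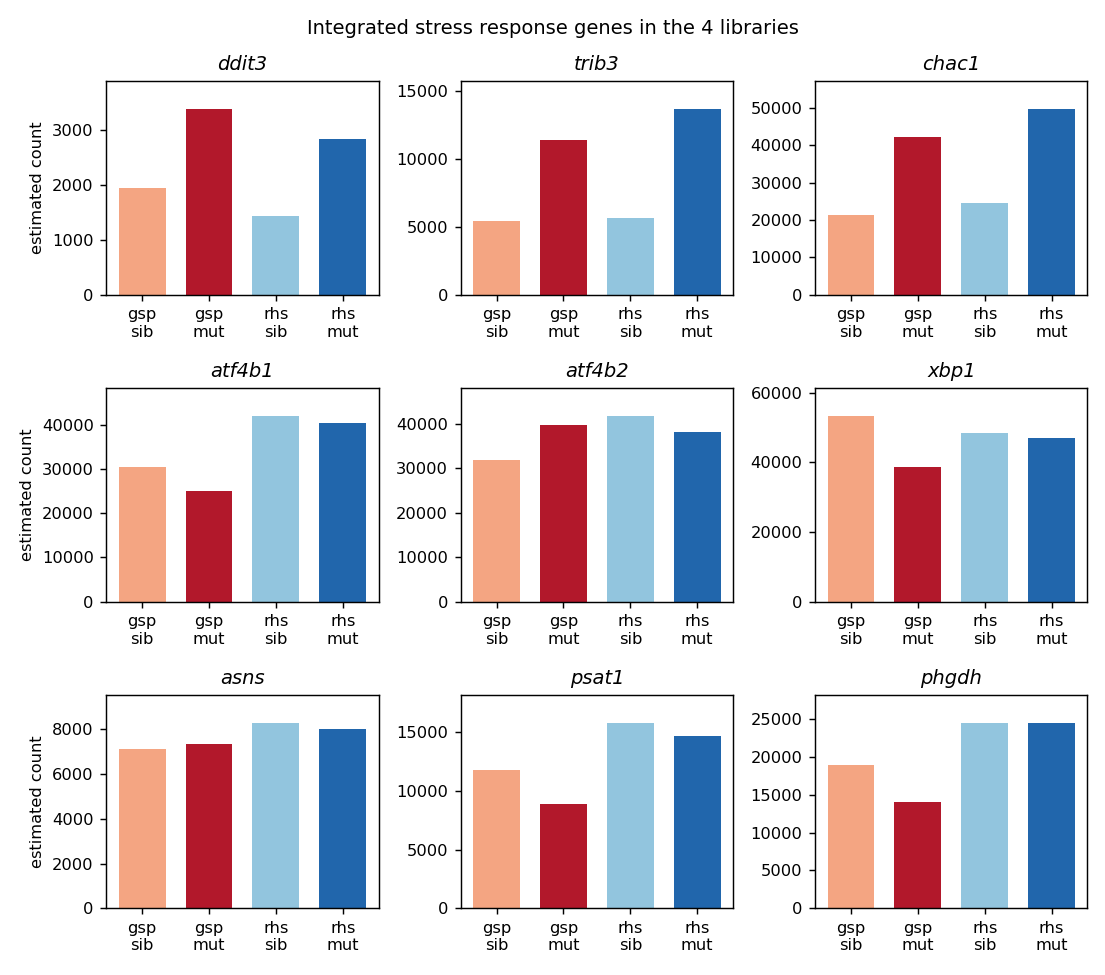
Estimated counts (unscaled, y axis) of the 9 genes in the 4 libraries, 1 bar per library, with sib for sibling and mut for mutant. The 3 genes of the top row are higher in both mutant libraries than in both sibling libraries, while in the lower rows the bars of the *rhs* mutant and sibling differ little.

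*trib3* encodes a pseudokinase that is induced by ATF4 and CHOP in mammals and lies on chromosome 11 of danRer7 (24994383 to 24999049, plus strand). The *gsp* mutant held 11371 estimated counts of it against 5426 in the sibling, and the *rhs* mutant held 13659 against 5635. Both mutants lay well above both siblings, whose values were within 1.04-fold of each other. The *gsp* ratio was 2.10 (2.03 to 2.16) and the *rhs* ratio 2.42 (2.35 to 2.5), the largest of the 9 genes in each line. Only 1.64% of all transcripts in *gsp* and 1.76% in *rhs* had a ratio as large or larger.

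*chac1* encodes an enzyme that degrades glutathione and is a target of ATF4 and CHOP in mammals. It lies on the plus strand of chromosome 20 from 28296542 to 28299071. The *gsp* mutant had an estimated count of 42326 and the *gsp* sibling 21467, and the *rhs* mutant had 49717 and the *rhs* sibling 24615. The groups did not overlap, and the lower mutant was 1.72-fold above the higher sibling. The ratio was nearly the same in the 2 lines, 1.97 (1.94 to 2.0) in *gsp* and 2.02 (1.99 to 2.05) in *rhs*.

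*ddit3*, the gene of CHOP, lies on chromosome 6 (58818530 to 58821727, plus strand). It had the lowest counts of the 9 genes, with 3382 in the mutant and 1940 in the sibling of the *gsp* line, and 2832 and 1426 in the *rhs* line. The mutants again lay above both siblings, but here the *gsp* line was the higher one, and its sibling exceeded the *rhs* sibling 1.36-fold. The ratio was 1.74 (1.65 to 1.84) in *gsp* and 1.99 (1.86 to 2.12) in *rhs*. With the *gsp* sibling as control for the *rhs* mutant the value was 1.46, just under the threshold. Because the row has only a clone name in the table, a search by symbol does not find it.

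Both mutant libraries were above both sibling libraries for 10.3% of all transcripts, and for 3 of the 9 genes here. The *trib3* count was 0.253 of the *chac1* count in the *gsp* sibling and 0.269 in the *gsp* mutant, and 0.229 and 0.275 in *rhs*, so the balance between the 2 genes moved by less than either gene did.

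**Figure D2:**
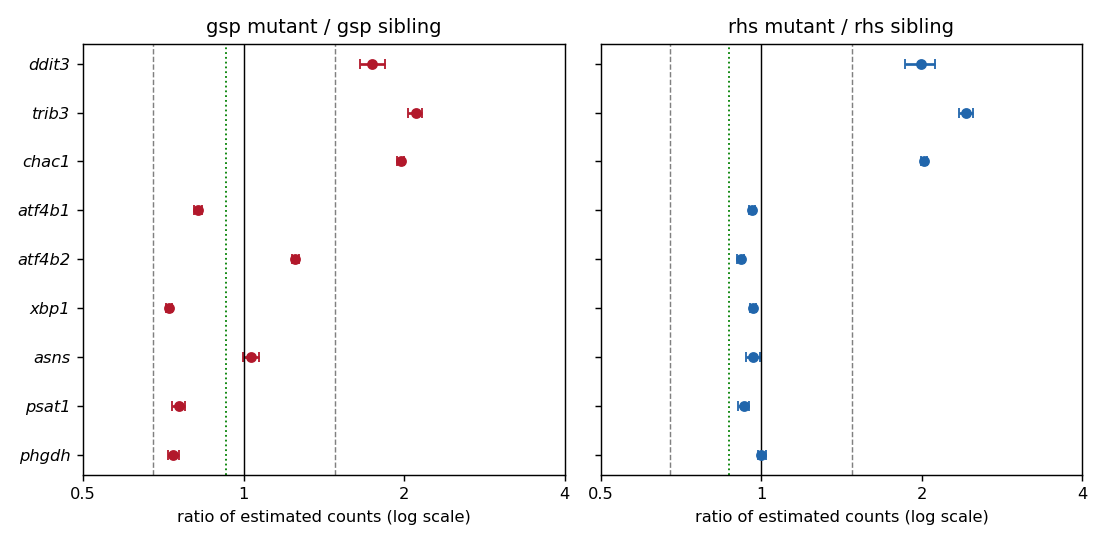
Ratio of mutant to sibling (log axis) of the 9 genes in *gsp* (left) and *rhs* (right), with 95% counting intervals as bars, the 1.48-fold threshold as dashed lines and the median of all transcripts as a dotted line. Only *ddit3*, *trib3* and *chac1* lie past the threshold, at 1.74 to 2.10 on the left and 1.99 to 2.42 on the right.

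The transcripts of the upstream factor were not past the threshold in either line. Zebrafish has a pair of *atf4* genes, *atf4b1* on the plus strand of chromosome 6 (217573 to 220923) and *atf4b2* on the plus strand of chromosome 3 (24489181 to 24492060). The *atf4b1* count was 25021 in mutants and 30507 in siblings of the *gsp* line, and 40413 and 42044 in those of the *rhs* line. Its values separated the 2 lines rather than mutants from siblings, since both *gsp* libraries were below both *rhs* libraries. The ratio was 0.820 (0.807 to 0.834) in *gsp* and 0.961 (0.948 to 0.974) in *rhs*.

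For *atf4b2* the counts were 39677 (mutant) and 31799 (sibling) in *gsp*, and 38269 (mutant) and 41846 (sibling) in *rhs*. Mutants and siblings overlapped, and the *gsp* sibling was the lowest library. The *gsp* ratio was 1.25 (1.23 to 1.27) and the *rhs* ratio 0.915 (0.902 to 0.927), or 1.35 and 1.05 relative to the median transcript. The 2 genes therefore lay on opposite sides of 1 in *gsp*, and their sum was 64698 in the *gsp* mutant against 62306 in its sibling, a ratio of 1.04 (1.03 to 1.05), and 78682 against 83890 in *rhs*, a ratio of 0.938 (0.929 to 0.947). Within a library, *atf4b1* had 0.631 of the *atf4b2* count in the *gsp* mutant and 0.959 to 1.06 in the other 3.

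*xbp1* lies on the minus strand of chromosome 5 (17718234 to 17722678). Mutant and sibling counts were 38685 and 53362 for *gsp* and 46860 and 48537 for *rhs*. The *gsp* mutant was the lowest library and the *gsp* sibling the highest, while the *rhs* libraries lay close together between them. The ratio was 0.725 (0.716 to 0.735) in *gsp*, the smallest of the 9 genes but short of the threshold, and 0.965 (0.953 to 0.978) in *rhs*. Both mutants were below both siblings, as for 33.4% of all transcripts, and relative to the median transcript the ratio was 0.782 in *gsp* and 1.11 in *rhs*. The spliced and unspliced forms share 1 row and could not be told apart.

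The enzymes of amino acid synthesis were not past the threshold in either line. *asns*, the asparagine synthetase gene on the minus strand of chromosome 19 (26140026 to 26163657), varied least of the 9, with a highest library only 1.17-fold above the lowest. Counts were 7321 against 7092 for *gsp* (mutant against sibling) and 8000 against 8289 for *rhs*, so the groups overlapped. Ratios were 1.03 (0.999 to 1.07) and 0.965 (0.936 to 0.995), and 1.11 in each line relative to the median transcript.

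*phgdh* and *psat1* encode consecutive enzymes of serine synthesis, and their counts moved together. *phgdh*, on the minus strand of chromosome 9 (49173963 to 49201709), had 13978 (mutant) and 18932 (sibling) in the *gsp* line and 24508 and 24410 in the *rhs* line. *psat1*, on the minus strand of chromosome 5 (72352361 to 72365894), had 8890, 11769, 14646 and 15802 in the same order. Both genes were lowest in the *gsp* mutant, next in the *gsp* sibling and higher in both *rhs* libraries.

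The ratio of *phgdh* was 0.738 (0.722 to 0.755) in *gsp* and 1.0 (0.986 to 1.02) in *rhs*. For *psat1* the ratios were 0.755 (0.735 to 0.777) and 0.927 (0.906 to 0.948). The *psat1* count was between 0.598 and 0.647 of the *phgdh* count in all 4 libraries. Against the *rhs* sibling the *gsp* mutant had ratios of 0.573 for *phgdh*, 0.563 for *psat1* and 0.595 for *atf4b1*, all past the threshold downward, so whether these 3 genes count as lower in *gsp* depended on the control library. The siblings themselves differed by 1.29-fold for *phgdh*, 1.34-fold for *psat1* and 1.38-fold for *atf4b1*.

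The *gsp* sibling was below the *rhs* sibling for 7 of the 9 genes and the *gsp* mutant below the *rhs* mutant for 7. The same shares over all transcripts were not counted, so these counts are not a result about the 9 genes. Over all transcripts the median log2 ratio of *gsp* sibling to *rhs* sibling was -0.06. The *gsp* library had the smaller total among siblings (115856413 against 118680429) and among mutants (106188690 against 113512118). None of the 9 had siblings 1.48-fold apart, as 18.5% of all transcripts did, and the fold between siblings ran from 1.04 (*trib3*) to 1.38 (*atf4b1*). For scale, log2 ratios over all transcripts had an SD of 0.73 between the siblings, 0.42 between *gsp* mutant and sibling and 0.50 between *rhs* mutant and sibling. For 3 of the 9 genes (*asns*, *phgdh* and *atf4b2*) the unscaled ratio lay on opposite sides of 1 in the 2 lines, as for 29.4% of all transcripts.

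A further 7 lists of genes around the response were read in the same way, matched by symbol and without the 9 genes themselves. Together they hold 137 rows with at least 100 in every library. Of these, 9 (6.57%) were past 1.48-fold upward and 6 (4.38%) downward in *gsp*, and 12 (8.76%) upward and 5 (3.65%) downward in *rhs*, beside the background shares given above. In both lines 8 of the 137 were higher, beside 3.52% of all transcripts. These 8 all came from the list of stress transcription factors and related genes and the list of ATF4 and CHOP targets. All 7 lists were chosen with earlier results of these data known.

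Among 15 rows of stress transcription factors and related genes, 4 were higher in *gsp*, 6 in *rhs* and 0 lower in either. Their median ratios were 1.15 and 1.17. The list also holds sestrin genes and *trib1*, which do not encode transcription factors. *sesn2*, counted here as higher in *rhs*, is also in the list of ATF4 and CHOP targets. The 4 higher in both were *cebpb*, *atf3*, *cebpd* and *cebpa*. *cebpb*, a C/EBP factor that pairs with ATF4 in mammals, had counts of 43058 and 4236 in the *gsp* mutant and sibling and 41216 and 4149 in *rhs*, ratios of 10.2 (9.85 to 10.5) and 9.93 (9.62 to 10.3). *atf3*, a bZIP factor induced by ATF4 and by many other stimuli, had ratios of 8.89 and 8.54. *cebpd* had ratios of 6.27 and 7.60, and *cebpa* 1.84 and 2.33. By contrast *cebpg*, which pairs with ATF4 in mammals, had ratios of 1.15 and 1.10. These large values belong to factors that other stress and immune pathways also induce.

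Among 19 rows of other ATF4 and CHOP targets, 4 were higher in *gsp* and 6 in *rhs*, with median ratios of 1.10 and 1.19, and 1 was lower in *rhs*. *igfbp1a*, a secreted binder of insulin-like growth factors, had 18545 in the *gsp* mutant and 1665 in its sibling, and 21366 and 2138 in *rhs*, ratios of 11.1 and 10. *sqstm1*, the autophagy receptor p62, had 20224 and 5322 in *gsp* and 22752 and 5945 in *rhs*, ratios of 3.80 (3.69 to 3.92) and 3.83 (3.72 to 3.94). Both are also known targets of other pathways.

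The BH3-only genes *pmaip1* and *bbc3*, which promote apoptosis and are also p53 targets, were higher in both lines at low counts. *pmaip1* had 924 and 478 in the *gsp* mutant and sibling and 1561 and 776 in *rhs*, ratios of 1.93 (1.73 to 2.16) and 2.01 (1.84 to 2.20), with siblings 1.62-fold apart. *bbc3* had 428 and 246 in *gsp* and 372 and 238 in *rhs*, ratios of 1.74 (1.48 to 2.04) and 1.57 (1.32 to 1.85). *fgf21*, a hormone gene induced by ATF4 in mammals, was under 100 in every library, at 16 to 18. *sesn2*, a stress-induced regulator of mTORC1 and named after its values were seen, had ratios of 1.34 and 1.49.

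Of 13 rows for eIF2 kinases, eIF2, eIF2B and related genes, 0 were past it in either direction in *gsp*, and 1 was lower in *rhs*. In *gsp* 1 was past it upward with median centring, TMM scaling or division by library totals. It was *eif2ak2*, the same gene that was lower in *rhs*. The median ratios were 0.900 and 0.874, near those of all transcripts at 0.927 and 0.872. *eif2b1*, a subunit of the exchange factor for eIF2, had the largest mean change, with ratios of 0.776 (0.731 to 0.823) and 0.720 (0.678 to 0.764). The listed symbols *eif2ak4* and *ppp1r15a*, among others, matched no row, so those genes were not read. The kinase genes that follow are given for their role and were named after their values were seen. *eif2ak3*, the gene of the ER sensor PERK, had ratios of 0.940 and 1.09, and *eif2ak1*, the gene of the haem sensor HRI, 0.900 and 0.973. *eif2ak2*, the gene of the double-stranded RNA sensor PKR, was the row lower in *rhs*, at 109 against 210, and had 265 against 181 in *gsp*, ratios of 0.520 and 1.47. *pkz*, a PKR-like kinase gene that binds Z-form nucleic acid, was under the minimum of 100, with 52 against 24 in *gsp* and 72 against 43 in *rhs*. Its ratios were 2.17 (1.31 to 3.68) and 1.68 (1.13 to 2.5), past the threshold in both lines with wide intervals, and its siblings were 1.78-fold apart.

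Other genes of amino acid supply were read in 3 lists. The listed symbols *psph*, *slc7a11* and *slc7a5*, among others, matched no row, so those genes were not read. Of 22 rows of amino acid and one-carbon synthesis, 0 were past the threshold in *gsp* and 2 were lower in *rhs*, with medians of 0.966 and 0.917. In *gsp* 1 was past it upward with median centring or library totals, and in *rhs* 1 with median centring. Only 1 was lower in *rhs* with median centring, TMM scaling, library totals or the normalized columns. *bcat1*, the cytosolic branched-chain aminotransferase gene, had ratios of 0.890 (0.827 to 0.958) and 0.547 (0.505 to 0.592). The mitochondrial one-carbon gene *mthfd2*, a target of ATF4 in mammals and named after its values were seen, had ratios of 0.958 and 1.18.

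Of 13 rows of amino acid transporters, 1 was higher in *gsp*, and 1 was higher and 1 lower in *rhs*, with medians of 0.960 and 1.13, or 1.30 in *rhs* relative to the median transcript. The row lower in *rhs* was *slc7a2*, named after its values were seen. Its ratios were 0.759 in *gsp* and 0.542 in *rhs*, with siblings 3-fold apart. With median centring, TMM scaling, library totals or the normalized columns, 3 transporter rows were higher in *rhs*, *slc7a3* among them. *slc7a3*, a cationic amino acid transporter gene, had 6661 against 3940 in *gsp* and 7526 against 5174 in *rhs*, ratios of 1.69 (1.63 to 1.76) and 1.45 (1.40 to 1.51), the latter just short of the threshold as deposited. Of 19 rows of cytosolic tRNA synthetases and their scaffold genes, 0 were past the threshold in either line as deposited, with medians of 1.07 and 0.933, and with ratios spanning 0.791 to 1.45 (*gsp*) and 0.774 to 1.15 (*rhs*). In *gsp* 3 were past it upward with median centring or library totals and 2 with TMM scaling, and the median relative to the median transcript was 1.15. *iars* and *eprs*, synthetase genes named after their values were seen, had the ratios 1.45 and 1.42 in *gsp* and 0.961 and 0.926 in *rhs*. The largest mean change among them was that of *mars*, the methionyl-tRNA synthetase gene, at 1.39 (1.34 to 1.44) and 1.15 (1.11 to 1.18).

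**Figure D3:**
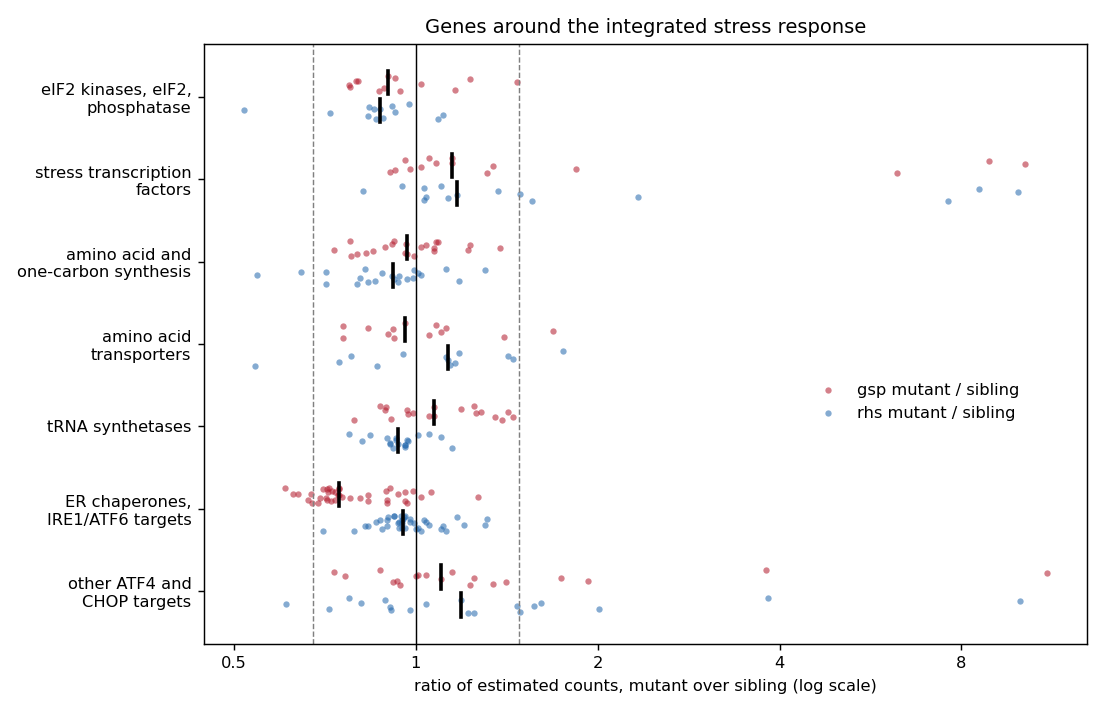
Ratio of mutant to sibling (log axis) of each row of the 7 lists with at least 100 in every library, without the 9 genes, in *gsp* (red) and *rhs* (blue), with a black bar at each median and the 1.48-fold threshold dashed. The ER list lies further left in *gsp*, with a median of 0.746 against 0.951 in *rhs*, and the points at 6-fold and above belong to *cebpb*, *atf3*, *cebpd* and *igfbp1a*.

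Among 39 rows of ER chaperones and other targets of IRE1 and ATF6, 6 were past the threshold downward in *gsp* and 0 upward. Over all transcripts 4.83% were past it downward in *gsp*. Of the 39 rows, 36 had a *gsp* ratio below 1 and 31 had one below the median of all transcripts. Their median ratio was 0.746, or 0.805 relative to the median transcript. *edem1*, *ern1* and *herpud1* were the 3 above 1, at 1.27, 1.06 and 1.02. In *rhs* 0 were past the threshold in either direction as deposited, beside 12.6% of all transcripts downward. There 26 were below 1 and 13 above, but only 5 were below the median of all transcripts, which was itself 0.872. The median of the list was 0.951 in *rhs*, or 1.09 relative to the median transcript. For 35 of the 39 the ratio in *gsp* was below that in *rhs*. Over all transcripts neither this share nor the share with a *gsp* ratio below 1 was counted. The median ratio of all transcripts was 0.927 in *gsp* and 0.872 in *rhs*. The difference between the lines in the ER list was not tested.

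The 6 rows were *manf*, *creld2*, *calrl2*, *ssr4* and 2 rows named *calr*. *manf*, a secreted ER stress protein, had 5959 in the *gsp* mutant and 9814 in its sibling, beside 8290 and 8642 in *rhs*, ratios of 0.607 and 0.959. The larger *calr* row, for the ER lectin chaperone calreticulin, had 25310 and 39682 in *gsp* and 28243 and 30121 in *rhs*, ratios of 0.638 and 0.938. *calrl2*, a calreticulin-like gene, had the largest mean change of the list, with ratios of 0.674 (0.663 to 0.685) and 0.789 (0.776 to 0.802). *hspa5*, the gene of the chief ER chaperone BiP, was named after its values were seen, with 35064 and 47752 in *gsp* and 31674 and 31339 in *rhs*, ratios of 0.734 and 1.01. Its siblings were 1.52-fold apart, so that the *gsp* mutant was still above both *rhs* libraries.

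The shift of the ER list therefore also depended on the control. The median row was 1.08-fold higher in the *gsp* sibling than in the *rhs* sibling. Against the *rhs* sibling the *gsp* mutant had a median ratio of 0.840, an alternative chosen after seeing the data. With this control the median of all log2 ratios was itself -0.18, and 4 ER rows were past the threshold downward and 2 upward. Relative to the median transcript, 1 ER row was past the threshold downward in *gsp* in place of 6, as with library totals, and there were 3 with TMM scaling and 0 at 2-fold. In *rhs* 2 ER rows were past it upward with median centring. Against the *gsp* sibling 4 were past it downward and 2 upward in *rhs*, and against the mean of siblings 2 downward and 1 upward.

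**Figure D4:**
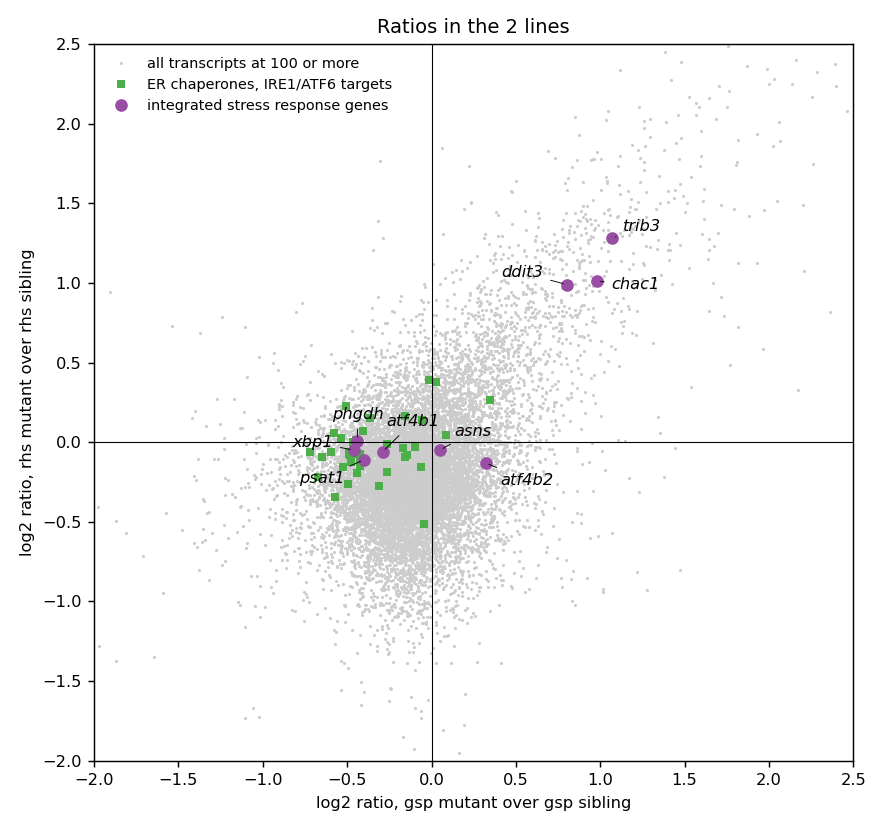
Log2 ratio of mutant to sibling in *gsp* (x axis) and *rhs* (y axis) for all 13633 transcripts at 100 or more (grey), the 39 ER rows (green squares) and the 9 genes (purple), with 69 transcripts outside the axes. *trib3*, *chac1* and *ddit3* lie at the upper right with log2 ratios from 0.80 to 1.28, while *xbp1*, *phgdh* and *psat1* lie among the ER rows, left of 0 in *gsp* and near 0 in *rhs*.

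*trib3* had the largest mean log2 ratio, and the transcripts most like it were sought over the 4 libraries. Likeness was the distance between log2 values after each transcript's own mean was subtracted, among 8979 transcripts with a gene name. The 5 nearest were *sgk1*, a serum- and glucocorticoid-induced kinase gene (distance 0.098), *gcnt4a* (0.109) and *b4galnt1a* (0.113), a pair of glycosyltransferase genes, *hmgcra* (0.123), the gene of the rate-limiting enzyme of sterol synthesis, and *acsl4l* (0.129), an acyl-CoA synthetase gene. *sgk1* had 7790 and 3838 in the *gsp* mutant and sibling and 10070 and 4208 in *rhs*, ratios of 2.03 and 2.39. *chac1* lay at a distance of 0.204 and *ddit3* at 0.580, and the other 6 genes at 1.126 to 1.489. With 4 libraries such a likeness is a description of these values.

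Whole larvae were sequenced, so fewer cells of a type and less RNA per cell cannot be told apart. Markers of 7 cell types were present, with none of the rows found at the floor value of 1 in every library. The summed count of 6 periderm markers was 0.509 of the sibling value in the *gsp* mutant (3535676 against 6949313) and 1.10 in *rhs*, and 4 of the 6 were past the threshold downward in *gsp*. Sums of muscle markers had ratios of 1.24 and 0.674, those of neurons 0.855 and 0.597, and those of liver 0.789 and 1.2. Basal epidermis had 0.716 and 1.02, red blood cells 0.808 and 1.12, and macrophages and neutrophils 0.707 and 0.914. The sums of periderm, basal epidermis, liver and red blood cells lay below 1 in *gsp* and above 1 in *rhs*. The median ratio of the liver markers was 1 in *gsp*, however. The sums of muscle lay the other way, and those of neurons, and of macrophages and neutrophils, lay below 1 in both lines. The median ratios of the macrophage and neutrophil markers were nearer 1, at 0.968 in *gsp* and 0.994 in *rhs*. Of these 5 markers, 1 was past the threshold downward in *gsp* and 0 in *rhs*. The ER list medians, 0.746 and 0.951, were also below 1 in both lines. The part of these cell types in the ER list result was not tested. No unscaled marker sum was above 1 in both lines, but the median transcript itself had ratios of 0.927 and 0.872. The median ratios of the liver markers (1 and 1.27) and of the macrophage and neutrophil markers were above those values in both lines. Whether cell composition had a part in the higher *ddit3*, *trib3* and *chac1* counts was not tested.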

How the data were processed

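RNA of pooled whole zebrafish larvae was sequenced as paired reads in 4 libraries, 1 per group. Per the study's methods, reads were trimmed (FastQC, FastX toolkit), aligned with TopHat and summarised with DEGseq; the labels give the build danRer7. The values deposited in the unscaled columns were read as estimated counts, floored at 1, although the study calls them RPKM. Their totals differ, as totals of RPKM can too. They show no relation to genomic span (r = -0.0301 across genes of 1 library). Genomic span includes introns, and length-scaled values could also show no relation, so neither point separates the 2 readings. Of values between 1 and 10, 34.5% to 37.6% are whole multiples of 1/101 within 0.01 of a multiple, as fractions of a read of 101 bases would be. The study's methods state a slightly shorter read length. Most of the low values were not such multiples, and the share to be met by chance was not computed. Either reading of the values, counts or RPKM, gives the same printed ratios, but the counting intervals depend on the reading. Whether the ratios need scaling, and comparisons between genes within a library, also depend on it. The normalized columns the authors deposited are log2 values shifted by a constant per library and centred on each row. Tables of the authors' own log2 ratios and folds were not used.

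Ratios of mutant to own sibling were computed from the unscaled values, with 1.48-fold as the threshold and a minimum of 100 in every library for lists and background. Intervals were exact Clopper-Pearson intervals of the values rounded to whole numbers (scipy 1.17.1). Counting PCR duplicates or read mates separately would make them too narrow. The paper's further limits on differences between siblings and between mutants were an alternative. Others were median-centred ratios, TMM scaling (edgeR 4.0.16, rounded counts), division by library totals, the normalized columns, other controls, pseudocounts of 10 and 100, a 2-fold threshold and other minimums. Calls and intervals were run on simulated counts with Poisson error only. Such counts hold no variation between larvae and no duplicates, so they cannot show how the intervals behave with these.

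The 9 genes, the 7 lists and the marker lists were chosen with earlier results of these data known. Besides the 9 genes, the rule named up to 4 genes per list with the largest absolute mean log2 ratio among those past the threshold the same way in both lines, or else the 1 with the largest mean, and the 5 transcripts most like the leading gene. Genes outside it are said to be named after their values were seen, except *cebpg*, *fgf21*, *manf*, *creld2*, *ssr4* *calr*, *pkz*, *edem1*, *ern1* and *herpud1*, which were also chosen then. Lists were matched by symbol, so genes under clone names are missed, and some genes are in more than 1 list. No sequences were printed because none were used here.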

Additional observations from a re-analysis of the deposited data

Results flagged for a closer look

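For 3 genes the unscaled count of the mutant lay on one side of its sibling in *gsp* and on the other in *rhs*. The difference between the lines was not tested. *atf4b2* had a ratio of 1.25 in *gsp* and 0.915 in *rhs*, with both counting intervals clear of 1. These intervals do not cover scaling or the choice of control. The ratios were 1.35 and 1.05 relative to the median transcript, and 1.08 and 1.04 against the mean of siblings. Under 8 alternatives the *rhs* ratio of *atf4b2* was above 1 in 4. *phgdh* had 0.738 in *gsp* and 1.0 in *rhs*, where the interval (0.986 to 1.02) holds 1. *asns* had 1.03 in *gsp*, where the interval (0.999 to 1.07) holds 1, and 0.965 in *rhs*, but 1.11 in each line relative to the median transcript. Over all transcripts 29.4% lay on opposite sides of 1.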

How the results depend on the processing

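Under 8 alternatives of scaling, control and pseudocount, the *gsp* ratio ranged over 2.02 to 2.29 (*trib3*), 1.72 to 2.15 (*chac1*) and 1.71 to 2.37 (*ddit3*), and the *rhs* ratio over 2.40 to 2.78, 2.02 to 2.32 and 1.46 to 2.28. All were past the threshold except *ddit3* in *rhs* against the *gsp* sibling. At 2-fold, 1 of the 9 genes was past it upward in *gsp*. Downward in *gsp* there were 3 of the 9 genes against the *rhs* sibling and 2 (*psat1* and *phgdh*) against the mean of both siblings. The median ratio of the 9 genes, 1.03 in *gsp* and 0.965 in *rhs* as deposited, was 1.11 and 1.11 with median centring, 1.08 and 1.04 with TMM, 1.13 and 1.01 divided by totals, 0.883 and 1.29 against the other line's sibling, 0.952 and 1.11 against the mean of siblings, and 1.08 in *rhs* with the normalized columns.

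Of the 137 list rows, 9 were higher in *gsp*, and 16 with median centring, 16 divided by totals, 16 against the other sibling and 5 at 2-fold. Lower in *gsp* were 6, and 1 with median centring, 3 with TMM, 1 divided by totals, 20 against the other sibling and 0 at 2-fold. Higher in *rhs* were 12, and 19 with median centring, 27 against the other sibling and 7 at 2-fold. Lower in *rhs* were 5, and 3 with median centring, 3 with the normalized columns, 16 against the other sibling, 8 against the mean of siblings, 0 at 2-fold and 8 with no minimum.

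Of all transcripts, 691 were higher in *gsp*, and 1598 against the other sibling, 256 at 2-fold and 1262 with no minimum. Lower in *gsp* were 659, and 383 with median centring, 359 divided by totals, 2181 against the other sibling, 1340 against the mean of siblings, 104 at 2-fold and 1369 with no minimum. Higher in *rhs* were 880, and 1387 with median centring, 1594 against the other sibling, 382 at 2-fold and 1512 with no minimum. Lower in *rhs* were 1714, and 698 with median centring, 1045 with TMM, 799 with the normalized columns, 231 at 2-fold, 2761 with no minimum and 1141 with the paper's filters. The higher share of calls in *gsp* was 51.2% as deposited, 70.4% with median centring, 63.7% with TMM and 72.9% divided by totals. In *rhs* it was 33.9%, and 66.5%, 52.4%, 43.8% and, with the normalized columns, 61.7%.

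The cause of these changes was not tested. With 1 library per group there was no replicate to leave out. No paired analysis was possible because within a line each group has 1 library. A fit over both lines, pairing mutant and sibling by line and taking the 2 mutants as replicates, was not run. Counting error is small at these depths, and the error between larvae is unknown.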

Other observations

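Genes next to *chac1* in glutathione metabolism were looked up after the data were seen. Of 5 rows with at least 100 in every library, *gss*, the glutathione synthetase gene, was past 1.48-fold upward in both lines, with counts of 1073 and 589 in the *gsp* mutant and sibling and 890 and 584 in *rhs*, ratios of 1.82 (1.65 to 2.02) and 1.52 (1.37 to 1.69). The subunits of the enzyme before it, *gclc* and *gclm*, had ratios of 0.970 and 1.05 in *gsp* and 1.0 and 1.07 in *rhs*. *ggct*, another gamma-glutamylcyclotransferase gene, had 0.858 in *gsp* and was past the threshold downward in *rhs* (0.671). *chac2*, the related glutathione-degrading gene, had 0.841 (0.727 to 0.969) in *gsp* and 0.756 in *rhs*, so its ratios lay below 1 where those of *chac1* lay near 2.

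Chaperones and proteases of mitochondria, another compartment whose disturbance can start the integrated stress response in mammals, were looked up in the same way. Of 5 rows, 0 were past the threshold in either line. *hspd1* had ratios of 0.965 and 0.983, *hspa9* 0.972 and 0.948, and *hspe1* 0.754 and 0.996. *clpp* had 0.858 and 0.944, and *lonp1* had 1.17 (1.12 to 1.23) in *gsp* and 0.922 in *rhs*.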
